A study of Mus musculus with 4 samples.

Results

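The 4 mouse Hox gene clusters and their surroundings were examined for total histone H3. The members are the 800 bins of 5 kb that make up 1 Mb around each cluster in the mm8 genome, out of 469391 autosomal bins with a read. HoxA is chr6:51600001-52600000, HoxB is chr11:95700001-96700000, HoxC is chr15:102200001-103200000 and HoxD is chr2:74000001-75000000, with 200 bins each. They are defined by position, and were chosen with earlier results of these data known. The 2 Mb on either side served as the reference, with 797 bins for HoxA, 798 for HoxB and 800 for HoxD. HoxC lies near the end of chromosome 15, which left 454 flanking bins.

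Each of the 4 groups had 1 library. Untreated V6.5 embryonic stem (ES) cells, a line of C57BL/6-129 background, had been kept on feeder fibroblasts and then passaged off them. The second group was the same line in 10 uM SB431542 for 24 h, a compound that blocks the kinase of TGF-beta type I receptors. C2C12 myotubes are muscle cells formed from a myoblast line, here after 48 h in medium with 2% horse serum. The fourth group was 38B9, a pro-B line that stands for an early stage of B lymphocytes. Libraries held 13102915 to 13852985 distinct positions, and repeats of a position made up 2.80% to 5.53% of reads. No marker of a cell type can be read from a total H3 library, so the labels were not checked against markers. With 1 library per group no test between conditions could be made, and no difference below has a replicate check. No input library was used here, so more DNA copies and more H3 on each copy cannot be told apart. The SB431542 library is the only one of its run in the headers, so treatment and run cannot be told apart either.

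Hox genes encode homeodomain transcription factors that set position along the body axis. Within a cluster they are switched on in the order in which they stand, and in ES cells the clusters are covered by Polycomb repression and marked by both activating and repressive histone methylation. H3 itself is present in nearly all nucleosomes, so a total H3 profile reports nucleosome recovery rather than activity, and is used as the background for marks on H3. The clusters arose by duplication, and their neighbours carry the trace of it. By gene order in RefSeq, HoxA (11 Hox genes) is preceded by Hnrnpa2b1, Cbx3, Snx10 and Skap2 and followed by Evx1, Hibadh, Tax1bp1 and Jazf1. HoxB (10 genes) is followed by the paralogs Skap1, Snx11 and Cbx1. HoxC (9 genes) is followed by Smug1, Cbx5 and Hnrnpa1, and HoxD (9 genes) is preceded by Evx2 and followed by Mtx2, with Hnrnpa3 farther on. Cbx proteins bind methylated H3, and Hnrnp proteins package and process RNA.

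Since paralogous clusters share sequence, whether a short read can be placed at 1 of them matters to every count below. Among the relatives are 2 families of microRNAs. Their mature sequences are printed to show how little separates them, with the seed (bases 2 to 8, the part that pairs with targets) in capitals (RefSeq, GRCm38.p6).
mmu-miR-10a-5p in HoxB, chr11:96317186-96317208, plus strand: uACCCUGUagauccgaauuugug
mmu-miR-10b-5p in HoxD, chr2:74726074-74726096, plus strand: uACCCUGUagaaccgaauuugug
mmu-miR-196a-5p in HoxB, chr11:96265187-96265208, plus strand: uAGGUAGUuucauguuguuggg
mmu-miR-196a-5p in HoxC, chr15:102973365-102973386, plus strand: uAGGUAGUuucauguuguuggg
mmu-miR-196b-5p in HoxA, chr6:52230129-52230150, minus strand: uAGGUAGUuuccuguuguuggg

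The members of each family share 1 seed. Counted from the 5′ end of the mature sequence, miR-10b differs from miR-10a by U12A, and miR-196b from miR-196a by A12C. miR-196a is encoded identically in HoxB and HoxC. The longest run of bases shared by those 2 hairpins was 22, shorter than the 36-base seed of the read alignment. Among the Hox promoters, 24 entries for 22 of the 39 genes, the longest run shared between promoters of different clusters was 15 bases (Hoxa6 and Hoxd13, over 183 pairs). Exons were not compared, and the alignment allowed 2 mismatches in the seed, so these lengths do not decide where a read was placed.

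The promoters differ widely in base composition, which can move read recovery and was not corrected for. Median GC content was 57.7% over the Hox entries, from 39.7% to 81.0%, against 52.7% over all 32851 promoter entries. The entries with the fewest and the most CG pairs are printed below for contrast, as the 250 bases before the start (RefSeq, GRCm38.p6), with CG in capitals. The Hoxd11 promoter holds 2 CG pairs at 44.8% GC, and that of Hoxa13 holds 35 at 80.0% GC. Both genes encode factors of the posterior, late-acting end of their clusters.
Hoxd11, chr2:74679308-74679557, plus strand: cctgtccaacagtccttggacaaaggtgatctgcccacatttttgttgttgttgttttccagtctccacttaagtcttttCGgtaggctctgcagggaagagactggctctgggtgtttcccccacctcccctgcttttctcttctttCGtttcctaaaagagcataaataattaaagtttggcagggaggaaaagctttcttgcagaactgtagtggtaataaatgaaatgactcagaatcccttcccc
Hoxa13, chr6:52260881-52261130, minus strand: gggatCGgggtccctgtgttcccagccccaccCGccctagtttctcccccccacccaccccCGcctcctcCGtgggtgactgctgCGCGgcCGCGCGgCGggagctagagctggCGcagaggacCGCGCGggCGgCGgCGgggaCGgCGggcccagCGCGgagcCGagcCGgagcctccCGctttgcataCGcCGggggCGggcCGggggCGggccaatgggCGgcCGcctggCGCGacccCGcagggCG

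Coordinates of these sequences belong to GRCm38.p6 and those of all reads to mm8, so the sequences are not placed on the profiles below.

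The first question was how much H3 each Hox megabase held. Levels are given as distinct positions per bin relative to the library's median 5 kb bin of the same chromosome. Mean levels follow for untreated ES, SB431542, myotubes and pro-B. They were 1.20, 1.24, 1.13 and 1.35 in HoxA, and 1.07, 1.07, 0.923 and 1.01 in HoxB. In HoxC they were 1.13, 1.10, 1.06 and 1.28, and in HoxD 1.08, 1.09, 1.01 and 1.10. All 4 megabases lay near the level of their flanks, and HoxD was below its flanks in each library. In HoxD the ratio to the flanks was 0.913 (0.888 to 0.938) in untreated ES, 0.906 (0.882 to 0.931) with SB431542, 0.928 (0.901 to 0.955) in myotubes and 0.896 (0.872 to 0.921) in pro-B. The 4 intervals overlapped, and all stayed below 1. HoxD was nevertheless above the chromosome's median bin in each library, since its flanks had mean levels of 1.18, 1.21, 1.09 and 1.23.

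In HoxA the ratio was 1.10 (1.07 to 1.13) in untreated ES, 1.15 (1.12 to 1.18) with SB431542, 1.03 (0.998 to 1.06) in myotubes and 1.12 (1.09 to 1.15) in pro-B. The pro-B value depended on how far the flanks reached, since it was 0.940 with flanks of 1 Mb. HoxC was above its flanks in every library, at 1.09 (1.05 to 1.12), 1.14 (1.11 to 1.18), 1.16 (1.13 to 1.19) and 1.18 (1.15 to 1.22) in the same order. HoxB had the lowest single ratio, in pro-B. It stood at 1.02 (0.992 to 1.05) in untreated ES, 1.06 (1.03 to 1.09) with SB431542 and 0.980 (0.950 to 1.01) in myotubes, and at 0.842 (0.817 to 0.867) in pro-B.

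None of these ratios was unusual for the genome. Over 2358 autosomal windows of 1 Mb, each set against its own flanks, the 5th to 95th percentiles ran from 0.764 to 1.20 in untreated ES, 0.782 to 1.19 with SB431542, 0.764 to 1.18 in myotubes and 0.687 to 1.41 in pro-B. All 16 Hox values lay inside these ranges. The nearest to an edge was HoxC in myotubes, with 93.4% of windows lower.

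**Figure D1:**
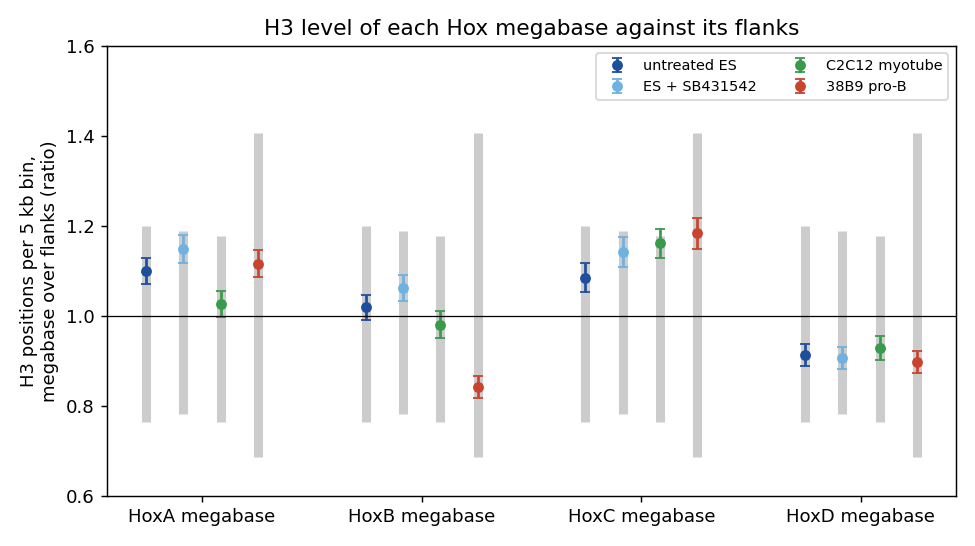
H3 positions per 5 kb bin in each Hox megabase over those in its flanks (y axis, ratio), by megabase (x axis) and library (colour). Points carry 95% counting intervals, and grey bars run from the 5th to the 95th percentile of 2358 autosomal 1 Mb windows; HoxD lies below 1 in all 4 libraries, and every point lies within its grey bar.

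Single bins varied around these means. The coefficient of variation over the 200 bins of a megabase lay between 0.236 and 0.458, against 0.407 to 0.535 over all autosomal bins, and was highest in pro-B in all 4 megabases. A bin in HoxC (chr15:102425001-102430000) and a bin in HoxD (chr2:74240001-74245000) had no read in any library. In HoxA the lowest bin was chr6:52290001-52295000, with 8 positions in untreated ES, 14 with SB431542, 11 in myotubes and 11 in pro-B. The highest bin there was chr6:52415001-52420000, with 35, 45, 38 and 118. Pro-B stood far above the other libraries in the highest bin, while the lowest was low in every library.

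In HoxB the lowest bin, chr11:95820001-95825000, held 6 positions in untreated ES, 28 with SB431542, 12 in myotubes and 9 in pro-B. The SB431542 library was the exception there, at a level of 0.933 against 0.200 to 0.444. The highest HoxB bin was chr11:95875001-95880000, with 57, 51, 40 and 56. In HoxC the highest bin, chr15:103080001-103085000, held 50, 48, 56 and 81 positions. In HoxD it was chr2:74690001-74695000, with 55 and 67 in the 2 ES libraries against 39 in myotubes and 37 in pro-B.

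Larger tiles of 50 kb hold about 10 bins and so have less counting error. The lowest tile by mean level was chr6:52250001-52300000 in HoxA (0.887), chr11:96100001-96150000 in HoxB (0.812), chr15:102800001-102850000 in HoxC (0.815) and chr2:74150001-74200000 in HoxD (0.859). The HoxC tile was low in every library, with levels of 0.879, 0.847, 0.791 and 0.741 in untreated ES, SB431542, myotubes and pro-B. The HoxB tile likewise stood at 0.907, 0.903, 0.744 and 0.693. The highest tile in HoxA, chr6:52400001-52450000, had a level of 2.40 in pro-B against 1.34, 1.32 and 1.19 in the others. In HoxD the highest tile, chr2:74650001-74700000, was high without that difference, at 1.34, 1.33, 1.10 and 1.35.

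**Figure D2:**
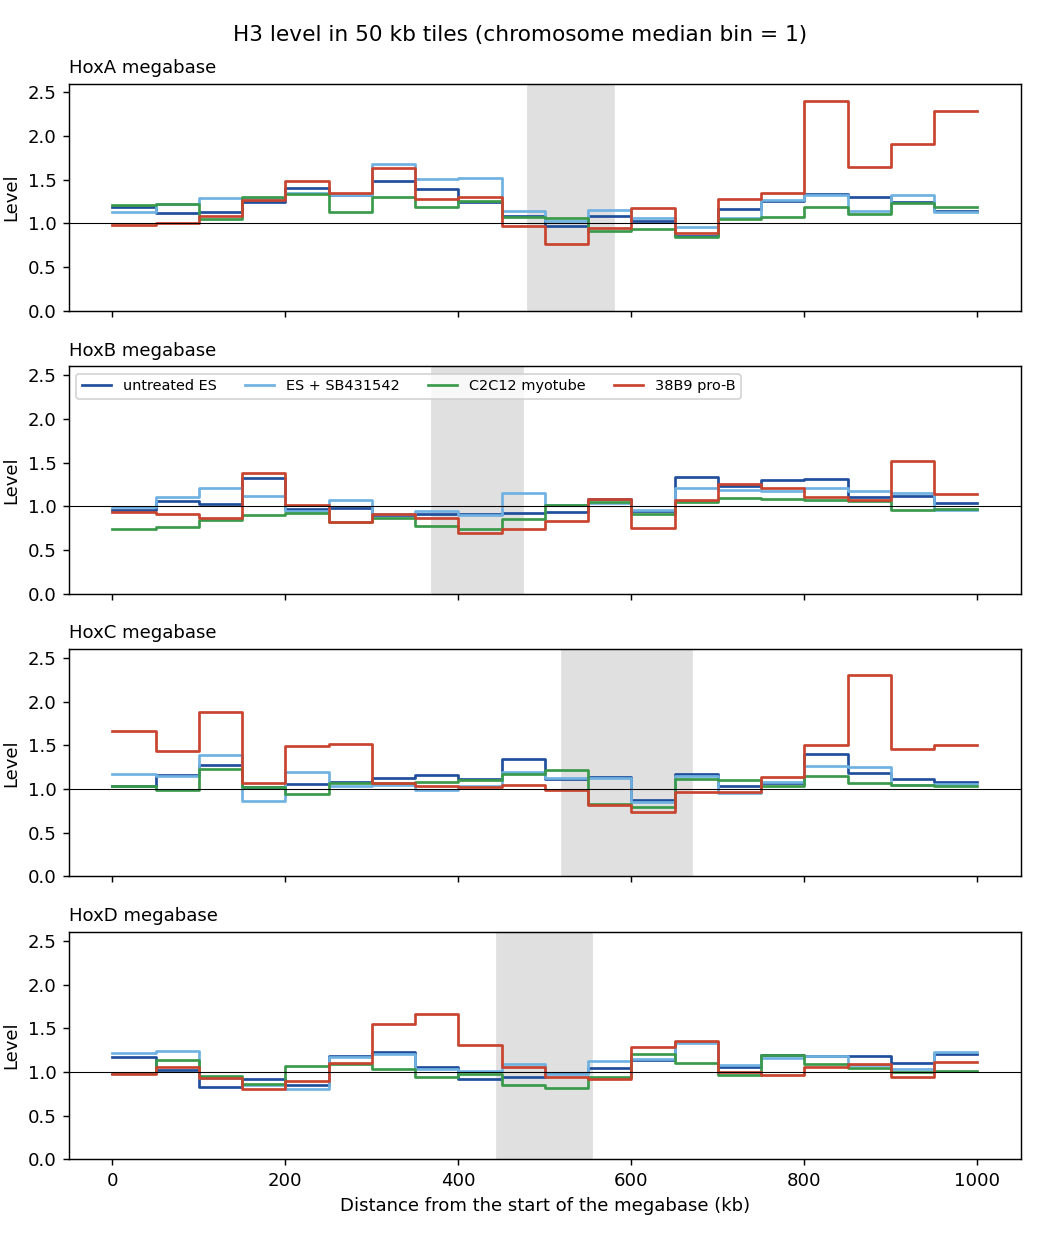
H3 level (y axis; 1 is the library's median 5 kb bin on that chromosome) in 50 kb tiles by distance from the start of each megabase (x axis, kb), with a line per library. Grey marks the longest stretch with at most 2 positions at 2 places per bin; pro-B reaches 2.40 near the end of HoxA, where the other 3 libraries stay between 1.19 and 1.34.

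The SB431542 library differed little from untreated ES over the Hox megabases. In the ratio of SB431542 to untreated ES, the log2 value of the megabase minus that of its flanks was 0.063 (0.009 to 0.117) in HoxA, 0.059 (0.003 to 0.115) in HoxB, 0.072 (0.012 to 0.133) in HoxC and -0.010 (-0.066 to 0.046) in HoxD. HoxA, HoxB and HoxC were slightly higher beyond counting error. The 5th to 95th percentiles over autosomal windows were -0.073 to 0.081, so that all 4 lay within the usual range. Without the flanks the log2 ratio in HoxA was 0.053 over distinct positions, -0.014 over all deposited reads and 0.022 with the chromosome mean in place of its median as the scale.

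At 5 kb a bin was called where the log2 ratio of levels was at least 1 in size and the mean count over the libraries at least 10. Of the 800 bins, 798 had a read and 796 passed this minimum. With SB431542, 8 were higher and 2 lower than in untreated ES, beside 0.824% and 0.839% of autosomal bins. At that background a share of 1.01% higher is no result about the Hox megabases. Of the 8, 5 lay in HoxD, and the highest ratio was that of the HoxB bin chr11:95820001-95825000 described above (log2 2.13, 28 against 6 positions). Among the 80 tiles of 50 kb, called at a log2 ratio of 0.5 with a mean count of at least 100, none was higher or lower, beside 0.0588% and 0.0435% of autosomal tiles. Tiles ranged from -0.25 to 0.32, and their standard deviation was 0.926 to 1.16 times that of counting alone.

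Myotubes differed from untreated ES by a small amount in the Hox megabases. The log2 ratio was -0.082 (-0.132 to -0.032) in HoxA, -0.209 (-0.263 to -0.156) in HoxB, -0.095 (-0.143 to -0.046) in HoxC and -0.087 (-0.140 to -0.035) in HoxD. The median bin that sets the scale is a whole number, so these values move in coarse steps that the intervals do not cover. On the chromosome mean they were -0.118, -0.217, -0.095 and -0.059. The value in HoxC rests on the scale. The median bin of chromosome 15 held 35 positions in myotubes against 27 to 30 in the other libraries, and with the autosomal median in place of the chromosome's own the log2 ratio in HoxC was 0.28. Against the flanks, HoxA was lower (-0.099, -0.155 to -0.043) and HoxC higher (0.098, 0.039 to 0.156). HoxB (-0.056, -0.116 to 0.004) and HoxD (0.024, -0.034 to 0.081) did not differ from their flanks beyond counting error. All lay between the autosomal 5th and 95th percentiles of -0.19 and 0.187.

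Of the 796 bins, 5 were higher and 14 lower in myotubes, beside 1.59% and 1.7% of autosomal bins. HoxB held 9 of the 14. No tile was higher, beside 1.49% of autosomal tiles, and 1 was lower, beside 1.52%. That tile was chr11:95850001-95900000 in HoxB, with 396 positions in untreated ES, 337 with SB431542, 244 in myotubes and 373 in pro-B (log2 -0.55). Myotubes were the low library there. The lowest tile of HoxC in this comparison, chr15:102750001-102800000 (log2 -0.45), held 331, 340, 292 and 222 positions. There the level was about as low in pro-B (0.822) as in myotubes (0.834).

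Against untreated ES, the pro-B library had 8 higher tiles of 50 kb in HoxA, HoxC and HoxD, and a lower level over HoxB as a whole. The log2 ratio was 0.170 (0.122 to 0.218) in HoxA and -0.082 (-0.135 to -0.030) in HoxB. In HoxC it was 0.184 (0.135 to 0.233), and in HoxD 0.031 (-0.020 to 0.082). On the chromosome mean the 4 values were 0.051, -0.233, 0.073 and -0.049. The log2 ratio of the flanks themselves was 0.148, 0.194, 0.059 and 0.057 in the same order. Relative to the flanks the log2 ratio was 0.022 (-0.032 to 0.076) in HoxA, -0.276 (-0.334 to -0.218) in HoxB, 0.125 (0.065 to 0.185) in HoxC and -0.026 (-0.082 to 0.030) in HoxD. HoxB was lower and HoxC higher than their flanks beyond counting error, and all 4 lay inside the wide autosomal range of -0.386 to 0.42. These values depended on the flanks: with flanks of 1 Mb they were -0.20 in HoxA, -0.213 in HoxB, 0.23 in HoxC and -0.116 in HoxD. The standard deviation of the 50 kb log2 ratios was 3.13 times that of counting in HoxA, 1.67 in HoxB, 3.44 in HoxC and 2.18 in HoxD. Here the spread within 1 megabase exceeded counting error in each case. For myotubes over untreated ES the same ratio was also above 1, at 1.10, 1.32, 1.19 and 1.45 in HoxA to HoxD.

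The number of called bins was not above the genome's. Pro-B was higher in 32 and lower in 10 of 796 bins, beside 5% and 2.5% of autosomal bins. Of 80 tiles 8 were higher and none lower, beside 12.7% and 4.05%. The higher tiles were 3 in HoxA, 3 in HoxC and 2 in HoxD. HoxB had none, and its highest tile, chr11:96600001-96650000, reached a log2 ratio of 0.44.

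**Figure D3:**
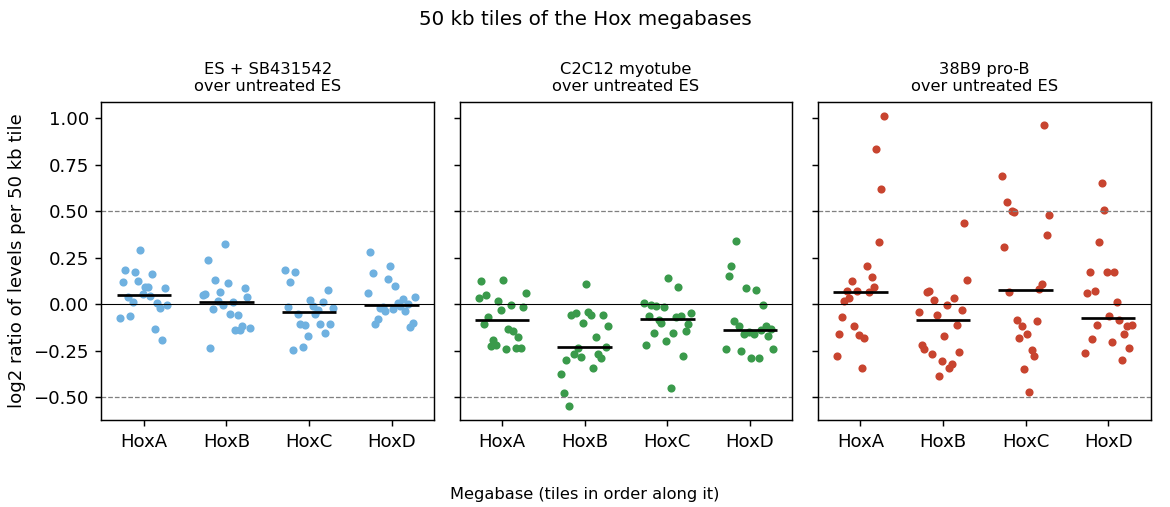
log2 ratio of levels per 50 kb tile (y axis) for SB431542, myotubes and pro-B against the same untreated ES library, by megabase (x axis). Each point is a tile and each bar the median of 20; dashed lines mark 0.5 and -0.5, past which 0, 1 and 8 tiles lie in the 3 panels.

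The 3 higher tiles in HoxA, and 8 of its 11 higher bins, lay in the last 200 kb of the megabase. Tiles of that end had log2 ratios of 0.83, 0.34, 0.62 and 1.01 in order. Inside it, 2 runs of neighbouring bins were called. At chr6:52405001-52420000 pro-B had 313 positions, against 117 in untreated ES, 117 with SB431542 and 84 in myotubes, a ratio of levels to untreated ES of 2.98 (2.41 to 3.72). At chr6:52565001-52585000 it had 306 against 122, 147 and 116, a ratio of 2.80 (2.26 to 3.48). Pro-B was high in both runs. Myotubes had the fewest positions in both, but were lowest by level only in the first. The median bin of chromosome 6 held 27 positions in myotubes and 29 in untreated ES. In the first bin of the first run, chr6:52405001-52410000, myotubes had 15 positions against 39 in untreated ES, the lowest myotube ratio of HoxA (log2 -1.25).

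**Figure D4:**
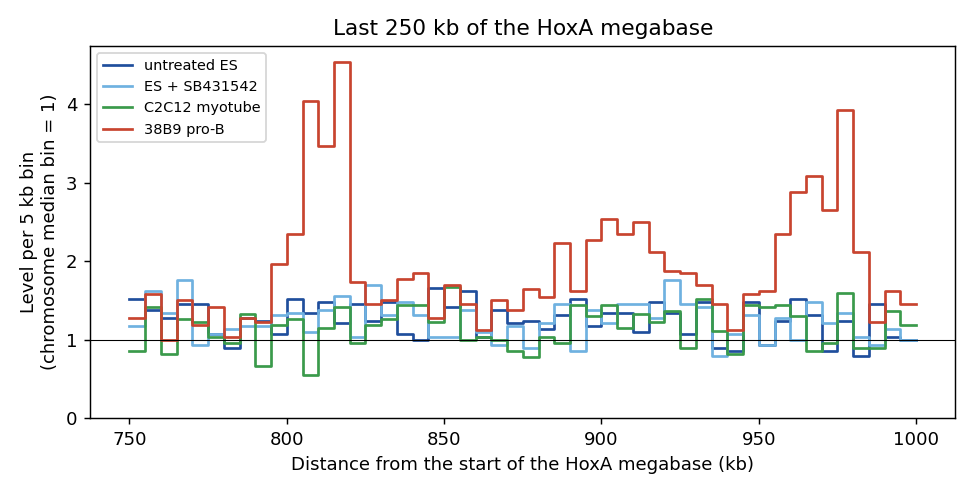
H3 level per 5 kb bin (y axis; 1 is the library's median bin on the chromosome) over the last 250 kb of the HoxA megabase (x axis, kb from its start), with a line per library. Pro-B rises to a level of 4.54 in 1 bin and above the other 3 libraries in a pair of called runs.

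In HoxC the excess lay at both ends. The tile chr15:103050001-103100000 held 343 positions in untreated ES, 375 with SB431542, 375 in myotubes and 624 in pro-B (log2 0.97). At the other end chr15:102200001-102250000 reached 0.69 and chr15:102300001-102350000 reached 0.55. The middle of the megabase went the other way, and its lowest tile was chr15:102750001-102800000 at -0.47. In HoxD the higher tiles were neighbours, chr2:74350001-74400000 with 306, 299, 265 and 465 positions (log2 0.65) and chr2:74400001-74450000 with 267, 293, 274 and 366 (log2 0.51). The lowest tiles of the other megabases were -0.34 in HoxA, -0.39 in HoxB and -0.30 in HoxD, and none of these passed the rule.

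At the scale of 1 kb, a window was counted for a library when it held at least 20 positions and at least 3 times the level of the highest other library. In pro-B, 10 of 4000 windows passed, beside 0.24% of autosomal windows, with 4 in HoxA, 5 in HoxC, 1 in HoxD and none in HoxB. At that background the count is no result about the Hox megabases. In the flanks 70 of 14102 windows passed in pro-B, with 28, 21, 10 and 11 for HoxA to HoxD. Inside the megabases none passed in untreated ES, with SB431542 or in myotubes, beside 0.000981%, 0.00129% and 0.00695% of autosomal windows. The highest was chr6:52407001-52408000, with 35 positions in pro-B against 9, 9 and 4. All 4 HoxA windows lay in the first called run. The HoxD window, chr2:74395001-74396000, had 25 positions in pro-B against 3 in untreated ES, 6 with SB431542 and 7 in myotubes, and stands in the higher tile named above.

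Myotubes against pro-B gave values for the same blocks from the other side, using the same pro-B library. The log2 ratio minus that of the flanks was -0.121 (-0.177 to -0.065) in HoxA, 0.220 (0.159 to 0.282) in HoxB, -0.028 (-0.086 to 0.031) in HoxC and 0.050 (-0.008 to 0.107) in HoxD. With flanks of 1 Mb the value was 0.122 in HoxA, 0.168 in HoxB, -0.179 in HoxC and 0.192 in HoxD. Of 796 bins 6 were higher and 49 lower in myotubes, beside 2.73% and 5.72% of autosomal bins. Of 80 tiles none was higher and 15 were lower, beside 4.48% and 14.1%.

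The lowest tiles in this comparison were at -1.01 in HoxA (chr6:52400001-52450000), -0.67 in HoxB (chr11:96600001-96650000), -1.11 in HoxC (chr15:103050001-103100000) and -0.81 in HoxD (chr2:74350001-74400000). Those of HoxA, HoxC and HoxD were also called higher in pro-B against untreated ES, and that of HoxB was not. Runs of called bins were chr6:52405001-52420000 (ratio 0.258, 0.201 to 0.330), chr6:52560001-52585000 (0.382, 0.314 to 0.462), chr11:96595001-96610000 (0.392, 0.289 to 0.525) and chr15:103055001-103075000 (0.397, 0.321 to 0.491). In the HoxB run the positions were 108 in untreated ES, 122 with SB431542, 65 in myotubes and 166 in pro-B, so that pro-B was high and myotubes low around the ES value. The HoxC run had 149, 188, 136 and 264.

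Libraries shared the shape of the profile to different degrees. Across the 20 tiles of a megabase, which have the same mm8 coordinates in both libraries, Pearson's r between the 2 ES libraries was 0.827 in HoxA, 0.741 in HoxB, 0.728 in HoxC and 0.838 in HoxD. Between pro-B and untreated ES it was 0.535, 0.722, 0.306 and 0.393. Over these tiles r between pro-B and untreated ES was highest in HoxB, which had no called pro-B tile, and lowest in HoxC. Over 5 kb bins the order differed, at 0.332, 0.465, 0.365 and 0.484 in HoxA to HoxD. Tiles are not replicates, and these are descriptions of 4 libraries.

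Hox clusters are known for holding few interspersed repeats. Reads with more than 2 places were dropped, so positions reported at 2 places leave out repeats with many like copies. They are at most a rough mark of repeated sequence and do not measure interspersed repeats. The megabases had fewer of them per bin than their flanks: 2.46 against 3.02 in HoxA, 3.58 against 6.29 in HoxB, 3.01 against 5.47 in HoxC and 2.02 against 3.72 in HoxD, summed over the libraries. Windows of 250 bp without a read went the other way in HoxD, at 6.00% of the megabase against 4.73% of its flanks. They were fewer than in the flanks in HoxA (3.33% against 4.82%), HoxB (3.68% against 4.48%) and HoxC (3.5% against 6.38%). No test was made of these differences.

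In each megabase the longest run of bins with at most 2 such positions was then taken. This limit was set after the 2-place counts and the tile levels had been seen, and with the approximate place of the clusters in mind, so what follows is a description that depends on the choice. The runs were chr6:52080001-52180000, chr11:96070001-96175000, chr15:102720001-102870000 and chr2:74445001-74555000. Their level over the rest of the megabase in untreated ES, SB431542, myotubes and pro-B was 0.803, 0.832, 0.811 and 0.552 in HoxA, 0.836, 0.892, 0.815 and 0.705 in HoxB, 0.919, 0.900, 0.836 and 0.622 in HoxC, and 0.892, 0.925, 0.799 and 0.902 in HoxD. All 16 were below 1 at this limit. Among 161 autosomal runs of at least 20 bins, 15 (9.32%) were below 1 in all 4 libraries. There the denominator was the megabase centred on each run, not the rest of the fixed megabase, and the 15 include the 4 Hox runs.

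Other limits gave other runs. At most 1 position per bin moved the run in HoxA to chr6:51715001-51785000 (0.986, 1.12, 0.986 and 0.820) and in HoxD to chr2:74930001-74990000 (1.01, 1.09, 1.02 and 1.02). At most 3 moved it in HoxB to chr11:96350001-96495000, where the levels were above the rest of the megabase (1.26, 1.15, 1.20 and 1.21). The next longest runs at a limit of 2 ranged from 0.748 to 1.30 over the 4 megabases. The 100 kb window with the fewest 2-place positions, also tried after the data were seen, gave 0.552 to 0.938. It was the first run itself in HoxA and lay wholly inside it in HoxB, HoxC and HoxD. It therefore measured the same bins again and is no separate check.

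In pro-B the rest of the megabase, which includes the higher blocks, was itself high in HoxA and HoxC. The pro-B level in the HoxA run was 0.781, against 1.41 in the rest, while untreated ES had 0.983 and 1.22. In HoxC the rest stood at 1.36 in pro-B and 1.14 in untreated ES. Compared directly with untreated ES, pro-B was lower in the runs of HoxA (ratio 0.794, 0.698 to 0.904), HoxB (0.808, 0.710 to 0.918) and HoxC (0.805, 0.728 to 0.889). In HoxD it was not (1.03, 0.922 to 1.16). Myotubes were lower than untreated ES in the runs of HoxB (0.845, 0.744 to 0.959), HoxC (0.862, 0.786 to 0.945) and HoxD (0.852, 0.756 to 0.959), and not beyond counting error in HoxA (0.953, 0.844 to 1.08). SB431542 did not differ beyond counting error in any of the 4, from 0.956 to 1.07. These ratios lay within the range of such runs. As log2 values the pro-B ratios of HoxA, HoxB and HoxC were -0.33, -0.31 and -0.31, and over the 161 autosomal runs 104 were below 0, with 5th and 95th percentiles of -0.605 and 0.803. The myotube values of -0.24, -0.21 and -0.23 in HoxB, HoxC and HoxD lay near the low end of their range. That range was -0.244 to 0.392, with a median of 0.0487. Less the log2 ratio of the rest of the megabase, no myotube run differed beyond counting error. The values were 0.014 (-0.166 to 0.195) in HoxA and -0.037 (-0.226 to 0.151) in HoxB. In HoxC the value was -0.138 (-0.279 to 0.003), and in HoxD -0.159 (-0.336 to 0.019). The direct myotube ratio in the HoxC run also rests on the scale of chromosome 15 described above. The part of base composition and repeats in these values was not tested.

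**Figure D5:**
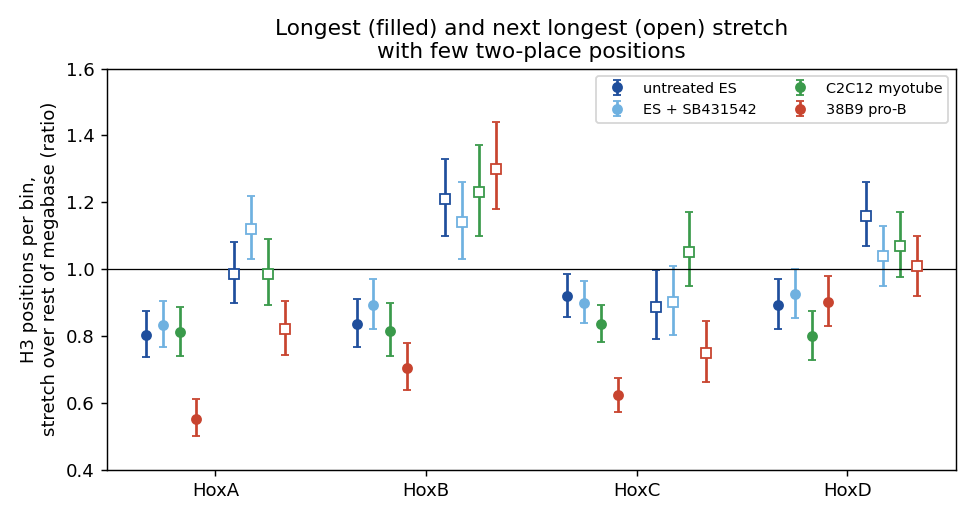
H3 positions per bin in a stretch with at most 2 positions at 2 places per bin, over the rest of its megabase (y axis, ratio, with 95% counting intervals), by megabase (x axis) and library (colour). Filled circles are the longest stretch and open squares the next longest; the filled circles lie below 1 from 0.552 to 0.925, the open squares spread from 0.748 to 1.30, and limits of 1 or 3 choose other stretches.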

How the data were processed

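Total H3 was measured by ChIP-seq in 4 libraries, 1 per group. Per the file headers, the authors aligned reads to mm8 by Bowtie, whose version is not given in the sources used here. The seed was 36 bases with at most 2 mismatches, and reads with more than 2 places were dropped. Each line deposited is the position of 1 read, signed by strand, with no normalization. Their sections are read here as reads with 1 place and with 2 places, which was inferred from the section names and options.

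Repeats of a position on the same strand were removed. Positions with 1 place were counted per 5 kb bin and divided by the library's median non-empty bin of the same chromosome, a whole number between 26 and 35. Ratios of single bins and tiles had 0.5 added to each count. Intervals are 95% Poisson or conditional binomial intervals for counting error alone, as PCR copies were not tagged by molecule. The calls were tried on simulated Poisson counts. These lack the spread beyond counting seen in pro-B, so the trial does not give the error rate of the calls in these data. Named features are each megabase in every library, its highest and lowest 5 kb bin and 50 kb tile by level, its tiles with the highest and lowest ratio per comparison, and runs of at least 3 called 5 kb bins. The megabases, lists and rules were chosen with earlier results of these data known. Other features named were chosen after their values were seen. The gene table at hand is of GRCm38, so no gene was placed on the reads and no GC correction was made. Python 3.11.15, NumPy 2.4.6, SciPy 1.17.1 and Matplotlib 3.10.9 were used.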

Additional observations from a re-analysis of the deposited data

How the results depend on the processing

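Over 80 results, 360 alternatives were computed. Of these, 281 kept the value within its counting interval, or a count within 1.5 times, 65 moved and 14 changed direction. A change of direction was counted only where the main interval excluded no difference. Other changes of sign are among those kept or moved. The autosomal median cancels in levels over flanks and in log2 ratios minus flanks. Those alternatives equal the main value by construction and are among the 281. The limit on 2-place positions, the 100 kb window and the chromosome mean scale were added after seeing the data. The cause of each shift was not tested. No paired analysis was possible because each group has 1 library. Depth limits single 5 kb bins most, at about 30 positions each.

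With flanks of 1 Mb, the level over flanks was 0.940 for pro-B in HoxA, 1.12, 1.18 and 1.32 in HoxC (untreated ES, SB431542, pro-B), and 0.966 and 0.846 in HoxD (myotubes, pro-B). The log2 ratio minus flanks was then -0.20, -0.213, 0.23 and -0.116 for pro-B over untreated ES (HoxA to HoxD), and 0.122, -0.179 and 0.192 for myotubes over pro-B in HoxA, HoxC and HoxD. With all deposited reads the HoxA log2 ratio was -0.014 for SB431542 and -0.135 for myotubes over untreated ES, and with 2-place reads -0.14 for the latter.

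On the autosomal median the log2 ratio was 0.0036 in HoxA (SB431542), 0.28 in HoxC and -0.035 in HoxD (myotubes over untreated ES), 0.239 in HoxC and 0.138 in HoxD (pro-B over untreated ES), and 0.041 and -0.173 there (myotubes over pro-B). On the chromosome mean it was 0.051, -0.233, 0.073 and -0.049 for pro-B over untreated ES and -0.169, 0.016, -0.167 and -0.010 for myotubes over pro-B (HoxA to HoxD).

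Counts of called bins moved as follows. For SB431542, against 8 higher and 2 lower, 2-place reads gave 3 higher, the autosomal median 5 higher, all reads 1 lower, a limit of 0.8 gave 20 and 13, and 10 kb bins 0 and 0. For myotubes over untreated ES, against 5 and 14, all reads gave 8 higher, the autosomal median 10 higher, a limit of 0.8 gave 10 and 38, and 10 kb bins 0 and 1; tiles became 1 higher and 2 lower on the autosomal median and 3 lower at a limit of 0.4. For pro-B over untreated ES, against 32 and 10, a limit of 0.8 gave 54 and 24, 10 kb bins 10 and 0, and the chromosome mean 19 lower; lower tiles became 1 at a limit of 0.4 and 2 on the chromosome mean. For myotubes over pro-B, against 6 and 49, the autosomal median gave 14 higher, a limit of 0.8 gave 17 and 84, the chromosome mean 11 and 32, and 10 kb bins 0 and 13; tiles became 2 higher and 9 lower on the autosomal median, 1 higher at a limit of 0.4, and 1 higher and 9 lower on the chromosome mean.

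The stretches with few 2-place positions gave, at a limit of 1, 0.986, 1.12, 0.986 and 0.820 in HoxA and 1.01, 1.09, 1.02 and 1.02 in HoxD (untreated ES, SB431542, myotubes, pro-B). At a limit of 3 they gave 1.26, 1.15, 1.20 and 1.21 in HoxB and 0.913 for myotubes in HoxC. The low level of these stretches therefore depends on the limit in HoxA, HoxB and HoxD.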
